A study of Drosophila sechellia and Drosophila melanogaster and Drosophila simulans with 18 samples.

Results

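Gene expression of whole adult females on control food was compared between *D. sechellia*, the specialist on *Morinda citrifolia* fruit, and its generalist relative *D. simulans*. The genes compared are those that carry an identical symbol in the *D. sechellia* and *D. simulans* tables once the species prefix is removed, occur once in each table, and reach 1 FPKM on control food in either species. FPKM counts fragments relative to the length of the gene model and to the mapped reads of the library, and so is a level per length. Of 222 symbols paired in this way 118 passed the minimum, against 50294 gene rows in the 3 tables of the series, and these 118 genes are described here. Just inside the minimum lay *bap*, at 0.665 FPKM in *D. sechellia* and 1.01 FPKM in *D. simulans*, and *r-cup*, at 1.24 and 0.183 FPKM. Just outside lay *Obp73a*, at 0.958 and 0.0611 FPKM, and *mir-125*, listed at 0 and at 0.915 FPKM.

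The study exposed 3 *Drosophila* species to hexanoic acid (HA), a fatty acid of ripe *Morinda* fruit, and sequenced RNA of 18 pools of whole flies. Both groups compared here were females aged 0 to 3 days after eclosion, reared on cornmeal medium at 20 °C with 16 h of light and 8 h of dark, then kept for 24 h on instant medium with no HA. The *D. sechellia* flies were of strain 14021-0428.25 and the *D. simulans* flies of strain 14021-0251.195, with 3 libraries of 10 flies for each. The HA groups of the same strains, on food with 0.23% HA for the same time, and *D. melanogaster* females of strain 14021-0231.36 on control food serve as points of reference. Each species is thus represented by 1 strain, and strain and species cannot be told apart.

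Each table holds 1 value per group, pooled by Cuffdiff over its 3 libraries, so no spread between libraries, no test and no p-value can be given. The tables hold no read counts, and no counting interval was computed for a value. Each species was also normalised in its own run, on its own gene models and with its own read length of 65 nt in *D. sechellia* and 51 nt in *D. simulans*. For that reason the position of a gene among the 118 genes within its own species was compared, not its FPKM across species. The percentile rank runs from the lowest gene to 100 for the highest, and the rank shift is the *D. sechellia* rank minus the *D. simulans* rank in points. A shift of 20 points or more was taken as large. As an alternative, each of the 118 genes was placed among all genes of its own table at 1 FPKM or more on control food. These numbered 12005 in *D. sechellia* and 9395 in *D. simulans* and are called the expressed genes. A gene under 1 FPKM was placed at 0 on this scale. The HA libraries come from other flies of the same strains, so the rank gap between the foods within a species shows how far a rank moves between sets of libraries, the diet included.

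Most genes of both tables carry only a number, so the paired symbols are a selected part of the genome. Of the 222 paired symbols 59 are noncoding RNA genes under the minimum, and 5 more noncoding RNA genes passed it. The protein-coding ones include odorant-binding proteins (Obps), which carry odours and tastants through the fluid around sensory neurons; enzymes of cuticular lipids; amylases and alcohol dehydrogenase, which meet the food; antibacterial peptides; and genes of oogenesis and heterochromatin. *D. sechellia* is known for altered smell and taste and for a narrow diet, and the cuticular hydrocarbons of its females, which act as pheromones, are known to differ from those of *D. simulans* females.

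The labelled tissue and sex were checked against markers. *Yp2*, a yolk protein made in fat body and ovarian follicle cells, ranked highest in both species, with 10910 FPKM in *D. sechellia* and 16246 FPKM in *D. simulans*. The germline genes *nos* and *bcd* stood at 249 and 13.4 FPKM in *D. sechellia* and at 80.0 and 10.01 FPKM in *D. simulans*. Of the markers of male accessory gland and testis, 9 of 10 in *D. sechellia* and 11 of 12 in *D. simulans* were under 1 FPKM, 7 and 5 of them listed at 0. Among those counted, the exception in both was *Est-6*, an esterase that females make too. *Ntf-2r*, planned as a male marker but not counted because its symbol differed, was at 24.1 FPKM in *D. sechellia* and 0.398 FPKM in *D. simulans*. *janA*, which the longer list of male genes also holds, was at 175 FPKM in *D. sechellia* and 133 FPKM in *D. simulans*. In bulk RNA, fewer cells of a type and less RNA per cell cannot be told apart.

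The order of the 118 genes was broadly shared between the species. Spearman's correlation across genes was 0.625, and Pearson's r of log2(FPKM + 1) was 0.689 (n = 118 genes, which share libraries, read length and annotation within a species). Of the 118 genes 35 shifted by less than 5 points and 60 by less than 10 points, and the median size of a shift was 9.32 points. Most of the most abundant genes kept their places, the metallothionein gene *MtnB* described below being an exception. Besides *Yp2*, those that did included *MtnA*, a metallothionein, at 7279 FPKM in *D. sechellia* and 2485 FPKM in *D. simulans*; the ribosomal protein gene *RpS18* at 4805 and 8862 FPKM; the muscle myosin light chain gene *Mlc1* at 2865 and 1559 FPKM; and *Adh*, the alcohol dehydrogenase that detoxifies dietary ethanol, at 2851 and 2090 FPKM. None of these 5 shifted by more than 1.69 points. A small rank shift near the top does not mean an equal level. The log2 ratio of (FPKM + 1), centred on the median of the 118 genes, was -1.83 for *RpS18*. For *Est-6*, which had a large rank shift, it was -1.76.

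Large shifts were found in 30 of the 118 genes (25.4%), of which 15 ranked higher in *D. sechellia* (12.7%) and 15 ranked lower (12.7%). These shares are the background for the groups of genes described next. Of the 30 genes, 9 were under 1 FPKM in 1 species and passed the minimum only through the other. They were *DesatF*, *CecC*, *CecB*, *Ntf-2r*, *Obp56e*, *mir-2a-1*, *mir-277*, *mir-92b* and *mir-100*. For these 9 a large shift follows in part from how they were chosen. With at least 1 FPKM required in both species, 24 of 99 genes had a large shift. Within a species the 118 genes moved far less between the foods. The median gap was 1.69 points in *D. sechellia* and 2.54 points in *D. simulans*, with gaps of 20 points or more in 4 and 3 genes, and Spearman's correlation between control and HA ranks was 0.934 and 0.979. The shift between the species exceeded the food gap of both species for 86 of the 118 genes. Among the large shifts, those of *mir-285*, *mir-92b* and *mir-100* did not exceed it.

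**Figure D1:**
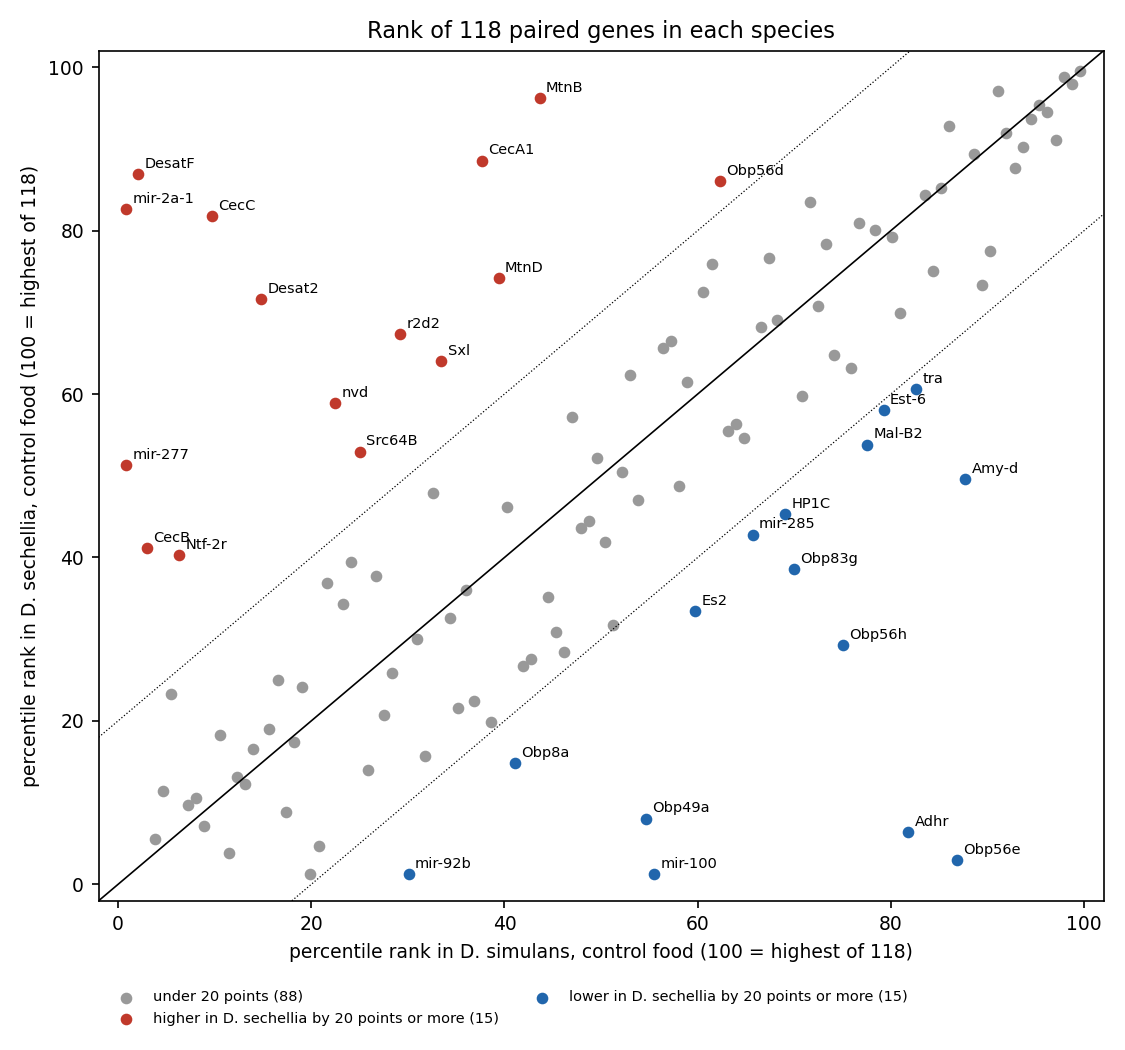
Percentile rank of each of the 118 genes on control food in *D. simulans* (x axis) and *D. sechellia* (y axis), with 1 point per gene, a solid line at equal rank and dotted lines at 20 points. Most points lie near the line, while *DesatF* and *mir-2a-1* in the upper left and *Obp56e* and *Adhr* in the lower right lie farthest from it.

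The same shift on HA food, in libraries that the choice of genes did not use, was close to that on control food. Of the 15 genes that ranked higher in *D. sechellia* 14 did so by 20 points or more on HA food too, as did 12 of the 15 that ranked lower. On HA food 32 genes in all had a large shift (27.1%), and 5 of these had a smaller shift on control food: *Ubx*, *Obp57a*, *Obp28a*, *Cp110* and *Dsk*. Only *mir-100* had large shifts of opposite sign. Spearman's correlation between the shifts on both foods was 0.864 across the 118 genes, which share gene models and read length on both foods.

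**Figure D2:**
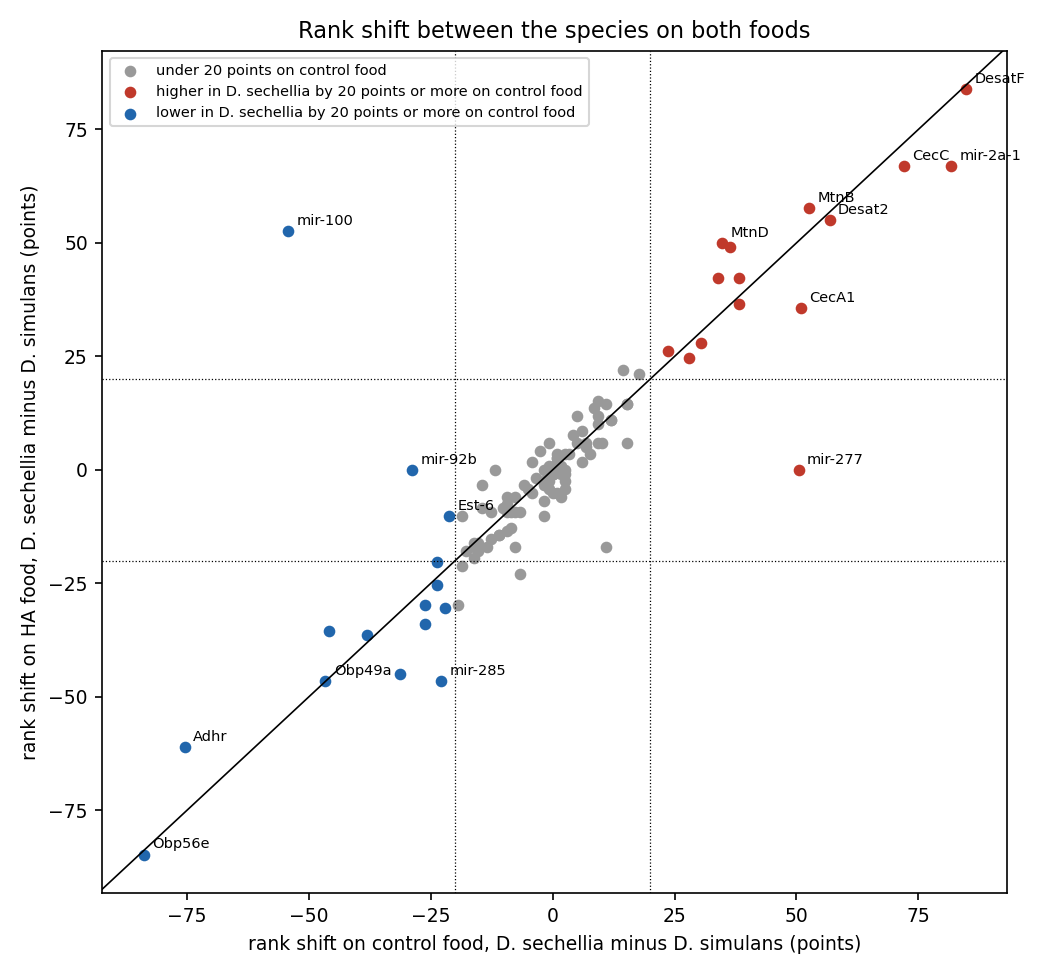
Rank shift between the species, *D. sechellia* minus *D. simulans* in points, on control food (x axis) and on HA food (y axis) for the 118 genes, with 1 point per gene, a solid line at equal shift and dotted lines at 20 points. Of the 30 coloured points 26 are beyond 20 points in the same direction on both foods, and *mir-100*, with -54.2 and 52.5 points, lies far from the line.

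Fatty-acid desaturases gave the largest shift of all. Cuticular hydrocarbons of females are built from fatty acids into which desaturases place double bonds, and the products of these enzymes act in mate recognition. *DesatF*, the female-specific desaturase that adds a further double bond and so makes dienes in *D. melanogaster*, was at 614 FPKM in *D. sechellia* and 0.0106 FPKM in *D. simulans* on control food, and at 503 and 0.0587 FPKM on HA food. It ranked at 86.9 in *D. sechellia* and 2.12 in *D. simulans*, a shift of 84.7 points, and 83.9 points on HA food. *DesatF* therefore stood among the abundant genes of 1 species and close to the bottom in the other, in both sets of libraries. It passed the minimum only through *D. sechellia*, so its positive shift follows in part from how it was chosen. *D. melanogaster* resembled *D. sechellia* here, with 134 FPKM. The gene, FBgn0265521 in *D. sechellia* and FBgn0185956 in *D. simulans*, is annotated over similar lengths in both: 1065 bases on scaffold_0 from 3239851 to 3240915 (dsec_caf1), and 1306 bases on 3L from 10762836 to 10764141 (ASM75419v3).

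*Desat2*, a desaturase that sets the position of the double bond in *D. melanogaster* females, was at 117 FPKM in *D. sechellia* and 1.25 FPKM in *D. simulans*, and at 101 and 1.20 FPKM on HA food. Its shift was 56.8 points on control food and 55.1 points on HA food. The *D. melanogaster* strain again stood with *D. sechellia*, at 97.1 FPKM. *nvd* (neverland), the oxygenase that starts the synthesis of ecdysteroid hormones from cholesterol, was at 52.5 and 2.66 FPKM, and at 71.8 and 1.08 FPKM on HA food, a shift of 36.4 points on control food. For *nvd*, *D. melanogaster* lay with *D. simulans* at 1.80 FPKM. The *D. simulans* locus of *nvd* spans 80283 bases and is shared with 1 other gene, and the *D. sechellia* locus spans 15348 bases. The remaining enzymes of this group, the juvenile hormone epoxide hydrolases *Jheh1* and *Jheh3*, shifted by -7.63 and -12.7 points.

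Antibacterial genes formed the next set. Of 9 paired symbols on the humoral immunity list 7 were among the 118 genes, and 3 of the 7 ranked higher in *D. sechellia* by 20 points or more and none lower. The median shift of the list was 15.3 points, against -0.847 points over all 118 genes. With ranks among the expressed genes of each table it was 31.2 against 1.78 points. All 3 with a large shift were cecropins, short peptides that break bacterial membranes and are induced by infection. Of the 3 only *CecA1* reached 1 FPKM in both species. *CecC* and *CecB* passed the minimum only through *D. sechellia*, so their positive shifts follow in part from how they were chosen. The count of 3 and the median of the list both include them. *CecC* was at 252 FPKM in *D. sechellia* and 0.856 FPKM in *D. simulans*, and at 133 and 0.331 FPKM on HA food, a shift of 72.0 points on control food. *CecA1* was at 1077 and 7.39 FPKM, and at 110 and 5.37 FPKM on HA food, with a shift of 50.8 points on control food and 35.6 points on HA food. *CecB* was at 24.4 and 0.181 FPKM, and at 23.1 and 0.0537 FPKM on HA food, a shift of 38.1 points. Each cecropin was higher in *D. sechellia* than in *D. simulans* on both foods, and within *D. sechellia* *CecA1* was the most variable of the 3 between foods.

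The cecropins lie side by side, on scaffold_4 of *D. sechellia* from 4888667 (*CecA1*) to 4894161 (*CecC*) and on 3R of *D. simulans* from 25381827 to 25387592. They are close copies of one another, and reads could be shared among them, so the level of each single cecropin is uncertain. Their *D. sechellia* gene models are short, between 250 and 262 bases, against 434 to 616 bases in *D. simulans*. In *D. melanogaster* *CecA1* was at 11.2, *CecB* at 0.0727 and *CecC* at 15.1 FPKM. Ranked among the same 118 genes, *D. melanogaster* was nearer to *D. simulans* for *CecA1* and *CecB*. The NF-kappaB factor *Rel*, which switches on cecropins, was at 50.8 FPKM in *D. sechellia* and 11.9 FPKM in *D. simulans*, a shift of 10.2 points. The thioester proteins, which bind microbes, shifted by 15.3 points (*Tep6*), 11.9 points (*Tep4*) and -9.32 points (*Tep2*).

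Metallothioneins, small cysteine-rich proteins that bind copper, zinc and cadmium, were the other set with large positive shifts. *MtnB* was at 3704 FPKM in *D. sechellia* and 10.4 FPKM in *D. simulans*, and at 3948 and 5.76 FPKM on HA food, a shift of 52.5 points on control food and 57.6 points on HA food. *MtnD* was at 161 and 8.64 FPKM, and at 471 and 5.54 FPKM on HA food, with shifts of 34.7 and 50.0 points. *MtnC* was at 4567 and 513 FPKM, but as an abundant gene in both species it shifted by only 5.93 points. All 4 metallothioneins thus had higher FPKM in *D. sechellia*, as did 88 of all 118 genes. Of the 4, *MtnA* and *MtnC* shifted by less than 10 points. *D. melanogaster* had 408 FPKM of *MtnB*, 271 FPKM of *MtnD* and 1986 FPKM of *MtnC*. The *D. sechellia* models of *MtnB*, *MtnC* and *MtnD* span 193, 191 and 202 bases, and the *D. simulans* locus of *MtnD* spans 16872 bases and is shared with 1 other gene.

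The other redox genes held their ranks. The glutathione transferase gene *GstD1* was at 1293 FPKM in *D. sechellia* and 633 FPKM in *D. simulans*, the superoxide dismutase gene *Sod* at 1599 and 1498 FPKM, the catalase gene *Cat* at 316 and 187 FPKM, and the thioredoxin gene *Trx-2* at 1091 and 339 FPKM. None of them shifted by more than 0.847 points. On the wider detoxification list 2 of 11 genes ranked higher, 1 ranked lower and the median shift was 0. The gene that ranked lower was *Est-6*, at 51.6 and 91.2 FPKM on control food and at 83.2 and 67.0 FPKM on HA food, with shifts of -21.2 and -10.2 points.

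**Figure D3:**
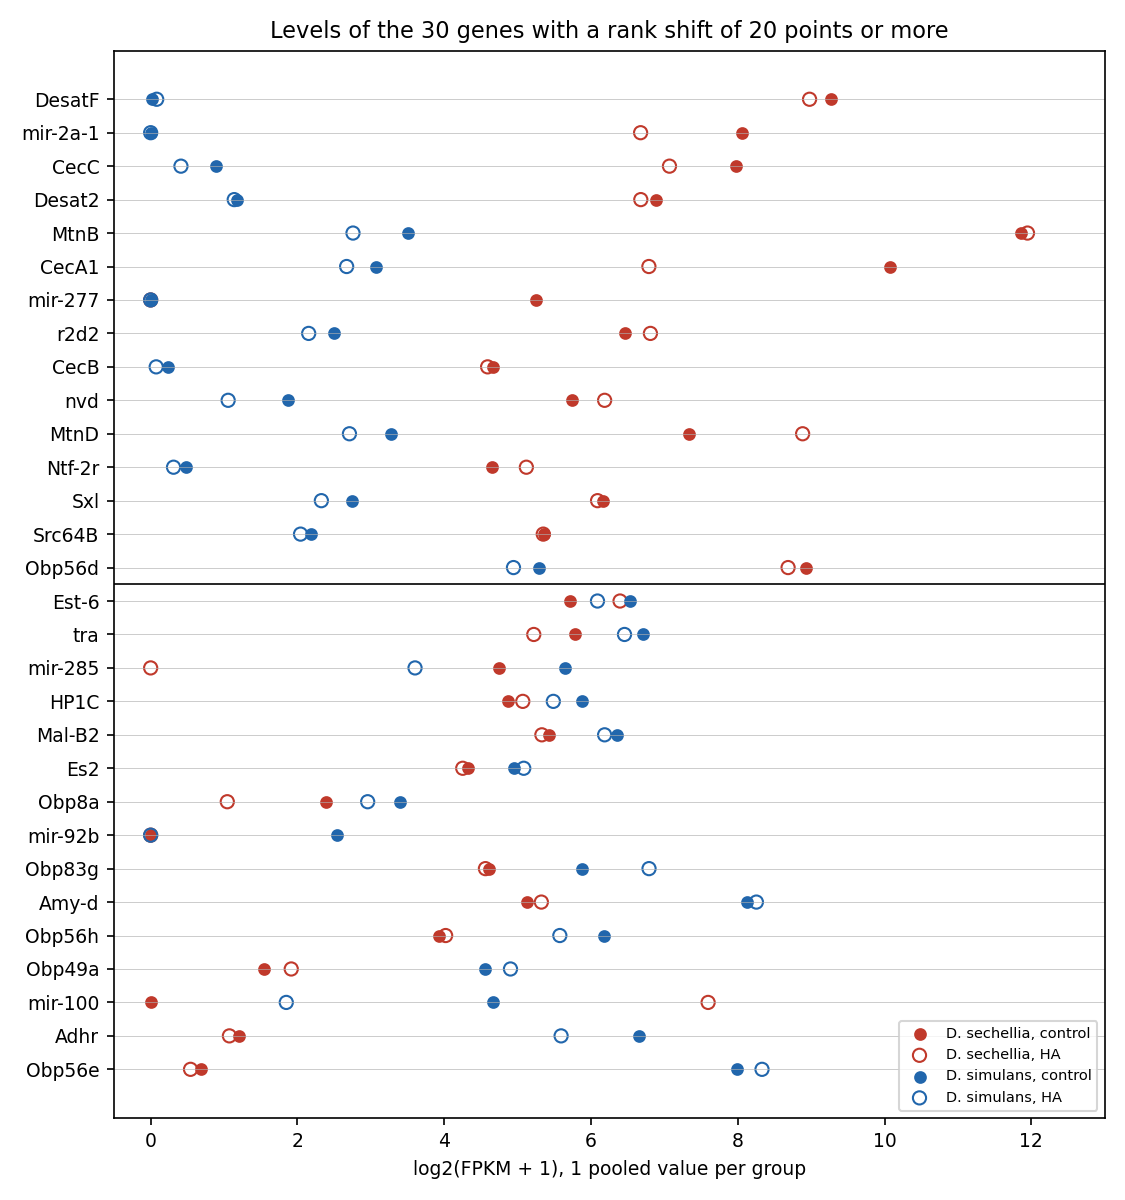
Level of the 30 genes with a shift of 20 points or more, as log2(FPKM + 1) (x axis), in *D. sechellia* (red) and *D. simulans* (blue) on control food (filled) and HA food (open), with 1 pooled value per group. The horizontal line parts genes that ranked higher in *D. sechellia* from those that ranked lower, and *DesatF*, at 614 against 0.0106 FPKM on control food, shows the widest gap.

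Obps were the largest family, with 26 of 46 paired symbols among the 118 genes. Of the 26 Obps 5 ranked lower in *D. sechellia* by 20 points or more and 1 ranked higher. Over all 118 genes 12.7% ranked lower and 12.7% higher by that much. *Obp56e*, counted among the 5, passed the minimum only through *D. simulans*. The median shift of the 26 Obps was -2.97 points, which turned to 1.91 points with ranks among the expressed genes of each table. Obps of the antenna sort odours, and others are made in taste organs and in tissues outside the head, so whole females mix several sources.

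*Obp56e* had the largest negative shift of the 118 genes. This gene passed the minimum only through *D. simulans*, so its negative shift follows in part from how it was chosen. It was at 0.616 FPKM in *D. sechellia* and 252 FPKM in *D. simulans*, and at 0.458 and 321 FPKM on HA food, with shifts of -83.9 and -84.7 points. *D. melanogaster* stood with *D. simulans*, at 208 FPKM. The gene models are of like length, 448 bases on scaffold_337 from 9592 to 10039 in *D. sechellia* and 605 bases on 2R from 16198232 to 16198836 in *D. simulans*. Its neighbour *Obp56d*, on the same scaffold from 562 to 1025, went the other way. *Obp56d* was at 485 and 38.2 FPKM, and at 411 and 29.8 FPKM on HA food, a shift of 23.7 points on control food and 26.3 points on HA food. *D. melanogaster* had 523 FPKM of *Obp56d*, so neighbouring genes of 1 cluster differed in which species stood apart.

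*Obp49a* was at 1.91 FPKM in *D. sechellia* and 22.5 FPKM in *D. simulans*, and at 2.77 and 28.9 FPKM on HA food, a shift of -46.6 points on both. *Obp49a* acts in *D. melanogaster* in taste organs, where it serves the suppression of sweet responses by bitter compounds. *D. melanogaster* had 17.1 FPKM, near *D. simulans*. *Obp56h* was at 14.2 and 71.7 FPKM, and at 15.2 and 46.7 FPKM on HA food, a shift of -45.8 points. Here *D. melanogaster* was lower than both, at 1.30 FPKM. The *D. simulans* locus of *Obp56h* is shared with 6 other genes, *Obp56g* among them, and reads of overlapping genes cannot be assigned to each with certainty.

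*Obp83g* was at 23.4 FPKM in *D. sechellia* and 58.0 FPKM in *D. simulans*, and at 22.6 and 110 FPKM on HA food, a shift of -31.4 points. *Obp8a* was at 4.26 and 9.54 FPKM, and at 1.06 and 6.76 FPKM on HA food, a shift of -26.3 points. Both were lower in *D. sechellia* on both foods. Ranked only among genes with spans within 1.5 times, *Obp8a* shifted by -13.0 points, and among genes with an unshared locus by -19.2 points. *Obp56a* was listed at 0 in *D. sechellia* and was at 2.14 FPKM in *D. simulans*, a shift of -18.6 points, but on HA food it was at 3.15 and 2.16 FPKM. *D. melanogaster* had 111 FPKM of *Obp56a*, so both other species were low.

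The Obp57 cluster has been linked to host choice in *D. sechellia*. Its 4 genes that passed the minimum all ranked higher in *D. sechellia* but by less than 20 points. Over all 118 genes 52 had a positive shift. *Obp57a* was at 201 FPKM in *D. sechellia* and 34.8 FPKM in *D. simulans*, and at 164 and 22.5 FPKM on HA food, with shifts of 14.4 and 22.0 points. *Obp57b* and *Obp57c* each shifted by 9.32 points, and *Obp57e*, low in both species at 2.24 and 0.249 FPKM, by 6.78 points. *Obp57e* passed the minimum only through *D. sechellia*, so its positive shift follows in part from how it was chosen. The abundant Obps shifted little in rank. *Obp99a* was at 1180 and 907 FPKM, *Obp99b* at 1397 and 221 FPKM and *Obp99c* at 1269 and 2454 FPKM, with shifts of -3.39, 6.78 and -5.93 points. *Obp76a* (*lush* in *D. melanogaster*), which is needed there for sensing a male pheromone, was at 11.4 and 4.55 FPKM. Its shift of -2.54 points turned positive among the expressed genes of each table. The 20 Obps without a large shift lay between -18.6 and 14.4 points. The other 20 paired Obps were under 1 FPKM in both species.

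**Figure D4:**
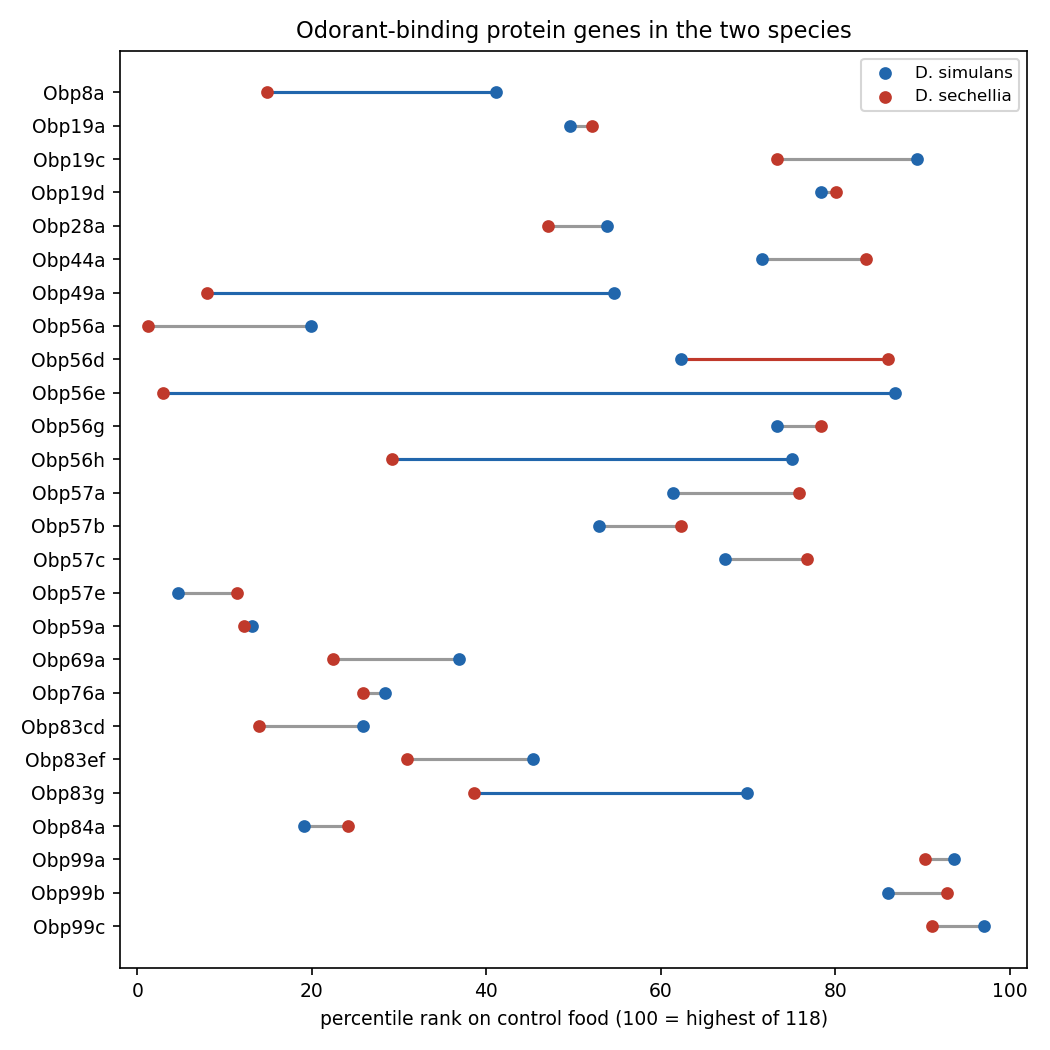
Percentile rank of the 26 odorant-binding protein genes on control food (x axis, 100 highest of the 118 genes) in *D. simulans* (blue points) and *D. sechellia* (red points), with a line joining the species that is coloured where the shift reached 20 points. *Obp56e*, *Obp49a* and *Obp56h* show the widest gaps with *D. simulans* higher, and only *Obp56d* passed 20 points with *D. sechellia* higher.

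The group of 16 genes of digestion and metabolism, a broad set, held 4 genes with a large negative shift (*Amy-d*, *Mal-B2*, *Adhr* and *Est-6*) and none with a large positive one. Its median shift was -6.36 points, but -0.697 points with ranks among the expressed genes of each table. Of the 5 starch- and sugar-splitting enzymes on the digestive list 2 ranked lower and none higher. *Amy-d*, an alpha-amylase, was at 33.8 FPKM in *D. sechellia* and 279 FPKM in *D. simulans*, and at 39.0 and 304 FPKM on HA food, a shift of -38.1 points. Its near-identical copy *Amy-p* was at 52.7 and 58.2 FPKM, a shift of -11.0 points, so the level of each copy is uncertain. *Amy-p* is annotated over 1487 bases in *D. sechellia* but only 488 bases in *D. simulans*. *D. melanogaster* had 178 FPKM of *Amy-d* and 407 FPKM of *Amy-p*. The related *Amyrel* moved the other way, at 22.6 and 2.23 FPKM, a shift of 15.3 points. Its *D. simulans* locus spans 11858 bases and is shared with 2 other genes, against 1539 bases in *D. sechellia*.

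The maltase gene *Mal-B2* was at 42.1 FPKM in *D. sechellia* and 80.8 FPKM in *D. simulans*, and at 39.2 and 71.8 FPKM on HA food, a shift of -23.7 points. Its *D. simulans* locus is shared with 10 other genes. *Mal-A1*, another maltase, was at 311 and 116 FPKM and shifted by 0.847 points. The starch and sugar enzymes therefore did not shift in 1 direction.

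*Adhr*, the *Adh*-related gene that lies just behind *Adh* and is read from a shared transcript in *D. melanogaster*, was at 1.30 FPKM in *D. sechellia* and 99.8 FPKM in *D. simulans*, and at 1.10 and 47.3 FPKM on HA food. Its shifts were -75.4 and -61.0 points. *D. melanogaster* was as low as *D. sechellia*, at 1.27 FPKM, and *D. simulans* stood apart. *Adh* and *Adhr* share 1 locus in both tables, with 89198 bases in *D. sechellia* and 78970 bases in *D. simulans*, and how reads were divided between them in each species was not tested. The rest of the group, among them the glucose-6-phosphate dehydrogenase gene *Zw* and the dopamine acetyltransferase gene *Dat*, lay between -11.0 and 15.3 points.

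The group named for the female germline and early embryo also holds *Ntf-2r* and *janA*, both given above with the male genes. It was near the background, with 3 of 18 higher in *D. sechellia* by 20 points or more, *Ntf-2r* among them, and 1 lower. Its median shift was 0.847 points, or 7.05 points with ranks among the expressed genes of each table. *Sxl*, the switch gene of female development, was at 70.4 FPKM in *D. sechellia* and 5.73 FPKM in *D. simulans*, and at 67.1 and 4.01 FPKM on HA food, a shift of 30.5 points. *tra*, the splicing factor that acts below *Sxl*, was at 54.3 and 104 FPKM, and at 36.3 and 86.8 FPKM on HA food, a shift of -22.0 points. These successive genes of 1 pathway thus differed in the direction of their shifts. Their gene models differ too: *Sxl* spans 7058 bases in *D. sechellia* and 21235 bases in *D. simulans*, and *tra* spans 184 and 1022 bases.

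*Src64B*, a kinase of the ring canals that join germ cells, was at 39.9 FPKM in *D. sechellia* and 3.54 FPKM in *D. simulans*, a shift of 28.0 points. On HA food it was at 39.8 and 3.12 FPKM. The *D. simulans* locus of *Src64B* spans 33709 bases and is shared with 1 other gene, against 3733 bases in *D. sechellia*. *Ntf-2r*, a retrocopy of a nuclear transport factor planned as a male marker, was at 24.1 and 0.398 FPKM, a shift of 33.9 points. It passed the minimum only through *D. sechellia*, so its positive shift follows in part from how it was chosen. On HA food *Ntf-2r* was at 33.8 and 0.241 FPKM. In the *D. simulans* table *Ntf-2r* shares a locus of 18461 bases with 4 other genes, *mir-100* among them, while its *D. sechellia* locus spans 393 bases. The cell-cycle genes of the group shifted less: *plu* by 9.32 points, *Top2* by 9.32 points and *mus209*, which encodes the replication clamp, by -12.7 points. The centromere histone gene *cid* was at 28.9 and 5.66 FPKM, a shift of 15.3 points. *Sry-alpha*, which in *D. melanogaster* acts when the embryo forms cells, was at 20.4 and 3.12 FPKM on control food but at 1.17 and 2.54 FPKM on HA food, so that its shift went from 11.0 to -16.9 points.

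In the group of 10 chromatin and small-RNA genes, 1 ranked higher and 1 ranked lower. The median shift was -5.51 points, or -1.45 points with ranks among the expressed genes of each table. *r2d2*, the partner of Dicer-2 in loading small interfering RNAs, was at 87.6 FPKM in *D. sechellia* and 4.67 FPKM in *D. simulans*, and at 111 and 3.45 FPKM on HA food, with shifts of 38.1 and 42.4 points. *D. melanogaster* had 36.5 FPKM of *r2d2*. *HP1C*, a chromodomain protein of active chromatin, was at 28.2 and 57.5 FPKM, and at 32.6 and 43.8 FPKM on HA food, a shift of -23.7 points. Its paralogs *HP1B* and *HP1A* shifted by -9.32 and -0.847 points, the last of which turned positive among the expressed genes of each table. *Hmr*, a gene of hybrid incompatibility between *D. melanogaster* and *D. simulans*, was at 4.80 and 5.14 FPKM, a shift of -16.1 points.

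None of the 13 patterning and cell identity genes had a large shift on control food. The nearest was the Hox gene *Ubx*, at 9.02 FPKM in *D. sechellia* and 0.357 FPKM in *D. simulans*, and at 13.9 and 0.251 FPKM on HA food, with shifts of 17.8 and 21.2 points. The *Ubx* model spans only 411 bases in *D. sechellia* against 76154 bases in *D. simulans*, and *Ubx* passed the minimum only through *D. sechellia*. At the other end the laminin gene *LanB2* was at 14.2 and 11.6 FPKM, a shift of -17.8 points. Both pigment genes of the group had positive shifts, with 11.0 points for *w* and 8.47 points for *y*, as did 52 of all 118 genes. The *D. simulans* locus of *y* spans 121895 bases and is shared with 11 other genes, against 3952 bases in *D. sechellia*.

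Among the 10 housekeeping, muscle and nerve genes only *Es2* had a large shift, at 19.0 FPKM in *D. sechellia* and 29.8 FPKM in *D. simulans*, and at 18.1 and 32.9 FPKM on HA food, a shift of -26.3 points, or -18.5 points when ranked only among genes with spans within 1.5 times. The neuropeptide gene *Dsk* (drosulfakinin), which in *D. melanogaster* signals satiety, was at 18.0 and 18.4 FPKM, and at 8.11 and 14.0 FPKM on HA food, with shifts of -19.5 and -29.7 points. *Cp110*, a centriole gene, was at 6.79 and 8.27 FPKM, with shifts of -18.6 and -21.2 points. The heat-shock chaperone gene *Hsp83* was at 1003 and 851 FPKM, a shift of -5.08 points. The other genes of this group shifted by less than 10 points.

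Of the paired noncoding RNA genes 59 were under the minimum and 5 passed it, all 5 of them microRNA genes. Of these 5, *mir-2a-1*, *mir-277*, *mir-92b* and *mir-100* were listed at 0 in 1 species and passed only through the other, so a large shift follows in part from how they were chosen, and their number is not a result. Their values are given as a description. *mir-2a-1* was at 266 FPKM in *D. sechellia* and listed at 0 in *D. simulans*, and at 101 and 0 FPKM on HA food, a shift of 81.8 points. *mir-277* was at 36.9 FPKM and listed at 0, but listed at 0 in both species on HA food. *mir-100* was listed at 0 in *D. sechellia* and was at 24.3 FPKM in *D. simulans*, and was at 192 and 2.60 FPKM on HA food. Of these 3 only *mir-2a-1* kept its direction on HA food. *mir-285* was at 25.8 and 49.3 FPKM, and listed at 0 and at 11.1 FPKM on HA food. *mir-92b* was listed at 0 and at 4.81 FPKM, and listed at 0 in both on HA food. All 5 were listed at 0 in *D. melanogaster*, and 3 of their ranks moved by more than 40 points between foods within *D. sechellia*. The libraries were made from poly-A selected RNA, and FPKM divides by the length of these models, 76 to 98 bases in *D. sechellia*.

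Gene models differed between the tables. The *D. simulans* locus was longer for 109 of the 118 genes, with a median ratio of 1.55, and for 64 genes the spans differed by more than 1.5 times. Of loci under 600 bases 70.5% had a span that is a multiple of 3 in the *D. sechellia* table, against 38.9% in *D. simulans* and 37.7% in *D. melanogaster*. The coding content of the gene models was not measured. Short *D. sechellia* models were common among the large shifts. Of the 12 genes with a span under 300 bases 7 ranked higher by 20 points or more and 4 ranked lower, leaving only *MtnC* under 20 points. Of the 12 genes 5 are microRNA genes, and of the 7 protein-coding ones 5 ranked higher and 1 lower. The 5 that ranked higher were the 3 cecropins, *MtnB* and *MtnD*. *CecC* and *CecB*, like most of the microRNA genes, passed the minimum only through 1 species. In the 106 genes with longer models 8 ranked higher and 11 lower. Among all 118 genes Spearman's correlation of the shift with the *D. sechellia* span was -0.0799, and with the ratio of spans 0.204. The part of span in the shifts of the short genes was not tested.

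**Figure D5:**
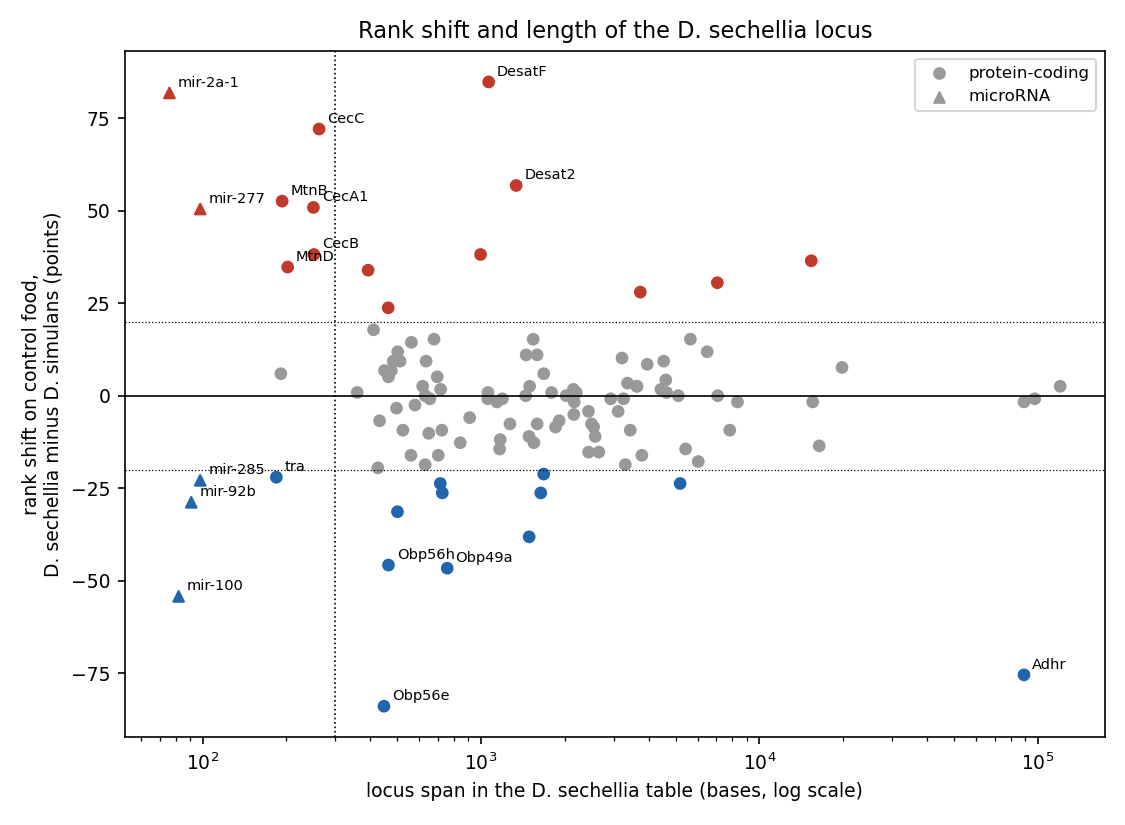
Rank shift on control food, *D. sechellia* minus *D. simulans* in points (y axis), against the span of the locus in the *D. sechellia* table in bases (x axis, log scale), with circles for protein-coding and triangles for microRNA genes; red and blue mark shifts of 20 points or more and the dotted vertical line marks 300 bases. Of the 12 genes left of that line 11 passed 20 points, 5 of them microRNA genes, whereas *DesatF*, *Desat2* and *Obp56e* lie to its right. Of the 7 protein-coding genes left of the line 5 ranked higher and 1 lower.

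Within the genes whose spans agree within 1.5 times, 10 of 54 had a large shift, 3 higher and 7 lower, with ranks taken among those 54. *DesatF*, *Desat2* and *Obp56e* are among these 10, though *DesatF* and *Obp56e* passed the minimum only through 1 species. By the number of exons in the *D. melanogaster* gene, the median shift was -8.47 points for 13 genes with 1 exon, 0 for 57 genes with 2 or 3 exons and -0.847 points for 41 genes with 4 or more, with 4, 15 and 5 large shifts. By *D. simulans* chromosome arm, large shifts were found in 6 of 15 genes on 2L, 5 of 27 on 2R, 6 of 21 on 3L, 10 of 36 on 3R and 3 of 18 on X, and in the single gene on 4 there was none.

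FPKM itself was higher in *D. sechellia* for 88 of the 118 genes, and the median log2 ratio of (FPKM + 1), *D. sechellia* over *D. simulans*, was 0.95. No gene with a large negative rank shift had higher FPKM in *D. sechellia*. None of the 30 genes changed sign when ranked among the expressed genes of each table, or when log2 ratios were centred on that median. With ranks among the expressed genes, 23 genes ranked higher in *D. sechellia* by 20 points or more and 13 lower, in place of 15 and 15. The median shift of the 118 genes went from -0.847 to 1.78 points. The balance of higher and lower genes therefore moved with the scale, and *Est-6* and *tra* fell under 20 points on it.

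*D. melanogaster*, sequenced with the same read length as *D. simulans*, was ranked over the same 118 genes. Spearman's correlation was 0.785 between *D. melanogaster* and *D. sechellia*, 0.750 between *D. melanogaster* and *D. simulans*, and 0.625 between *D. sechellia* and *D. simulans*, with 17, 22 and 30 shifts of 20 points or more. These comparisons share their samples in pairs. Of the 15 genes that ranked higher in *D. sechellia* than in *D. simulans* the *D. melanogaster* rank was nearer to *D. sechellia* for 10 and nearer to *D. simulans* for 5. Of the 15 that ranked lower it was nearer to *D. sechellia* for 8 and nearer to *D. simulans* for 7. Read length, annotation, strain and species cannot be told apart between *D. sechellia* and *D. simulans* with these tables.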

How the data were processed

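The authors sequenced poly-A selected RNA of whole females as single-end reads, used FastQC for read quality and Bowtie2 for mapping to dsec_caf1, ASM75419v3 or BDGP6, and ran Cuffdiff once per species; tool versions are not given in the sources used here. The deposited tables hold FPKM as the authors' Cuffdiff value, pooled over 3 libraries per group, with status and locus. Columns with the authors' own comparison of the diets (fold change, statistic, p-value and q-value) were not used. Bowtie2 does not split reads at introns, and bias and length correction act on each species' own gene models.

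From these values were computed percentile ranks, 100 × (rank - 0.5) / 118 with ties averaged, their differences, and correlations across genes, with no test. A pseudocount of 1 was used for log2 values. The rank script was tested on simulated data. The genes and lists, which were built on symbols, were chosen with earlier results of these data known, and the 10 groups by role and the names of 12 genes in *D. melanogaster* were set after the values were seen. Genes named are the 10 largest shifts each way with at least 1 FPKM in both species, those listed at 0 in 1 species, the 10 most abundant in each species, those with a large shift and the most abundant of each list, and those next to the minimum; any other gene named was picked with its values in view. The 118 symbols matched *D. melanogaster* in 106 cases as written and in 12 by a current name; exons come from Ensembl release 115. Loci count from 1. Alternatives were other minima, ranking sets, locus filters, thresholds and log2 ratios, and HA food. Computations used Python 3.11.15, pandas 2.3.3, NumPy 2.4.6, SciPy 1.17.1 and matplotlib 3.10.9.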

Additional observations from a re-analysis of the deposited data

Results flagged for a closer look

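*mir-100* stood out because the species differed in opposite directions on the 2 foods. Its rank shift, *D. sechellia* minus *D. simulans*, was -54.2 points on control food and 52.5 points on HA food. It was listed at 0 in *D. sechellia* on control food and was at 192 FPKM on HA food, while *D. simulans* went from 24.3 to 2.60 FPKM. The difference between the foods was not tested, since each group has 1 pooled value. The gene spans 82 bases in the *D. sechellia* table, and in the *D. simulans* table its locus of 18461 bases is shared with 4 other genes.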

How the results depend on the processing

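No paired analysis was possible because each group has 1 value pooled over its 3 libraries, and for the same reason no library could be left out in turn. Large shifts numbered 30 of 118, with 15 higher and 15 lower. They numbered 10 (3 higher, 7 lower) among genes with spans within 1.5 times, 19 (9 lower) among genes with an unshared locus, 14 (6 higher, 8 lower) with spans of at least 500 bases in both tables, and 19 (9 higher) with *D. sechellia* spans of at least 300 bases, a limit chosen after seeing the data; fewer genes were ranked in each. At 10 points they numbered 58 (25 higher, 33 lower), and at 30 points 13 were higher and 7 lower. Centred log2 ratios of at least 1 in size were found for 55 genes (27 higher, 28 lower) with a pseudocount of 1 and 63 (32 higher, 31 lower) with 0.1. With no minimum 9 were higher and 17 lower, and 16 of the 30 stayed at 20 points or more; 28 of the 30 did with ranks among all genes of each table, and 23 were higher and 13 lower. Spearman's correlation, 0.625, was 0.879 with no minimum (222 genes, many at or near 0 in both), 0.720 with at least 1 FPKM in both species, 0.566 with at least 5 FPKM in either, 0.673 without noncoding genes, 0.640 with spans within 1.5 times, 0.754 with spans of at least 500 bases, 0.722 with status OK in both tables and 0.727 with *D. sechellia* spans of at least 300 bases. Of single genes, *mir-100* changed sign on HA food, at 52.5 points. No symbol was listed more than once, so summing changed nothing. No counting interval was computed, and with no spread between libraries a shift of 20 points is a size, not a test.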
